A study of Homo sapiens with 4 samples.

Results

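Solute carriers are the membrane proteins that move amino acids, sugars, ions, metals, vitamins and other small molecules across the plasma membrane and the membranes of organelles. They were measured here as a gene group in A549 cells, a human lung adenocarcinoma line. Members were chosen by name alone: probes with exactly 1 gene symbol in the platform annotation, and a symbol made of SLC, a family number, A and a member number, or of SLCO with its subfamily. This gave 423 probes of 250 genes, out of 26629 probes and 12483 named genes on the array. A further 43 probes with 1 symbol starting with SLC fell outside this pattern (genes of SLC35B and SLC35F among them), and 27 probes carried an SLC symbol together with another gene's. Of the 250 genes 143 had 1 probe and 107 had 2 or more.

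Each of 4 two-colour cDNA arrays compared RNA of an A549 culture transfected to overexpress let-7a-3, which codes for a microRNA of the let-7 family, with RNA of a parental A549 culture grown in the same medium. No further treatment is given in the labels. The control is the parental line and not a line with an empty vector, so effects of transfection and selection cannot be told apart from those of let-7a-3. The dyes changed places between arrays 1 and 3 and arrays 2 and 4. Values are log ratios as deposited. No source used here gives the base of the logarithm, the channel in the numerator or the turning of swapped arrays, so a positive value cannot be assigned to either culture and no fold is given. Every sign below is that of the deposited table, and with the table turned all signs would change together.

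For this reason each probe and each gene was described by the mean over the 4 arrays (the shared component, which takes no account of the dyes) and by a component that follows the dyes (the alternating component, positive where arrays 1 and 3 are higher). The deposited labels do not settle which of them is the difference between the cultures. A call means an adjusted p under 0.05 in limma, after Benjamini-Hochberg adjustment across every probe, or every gene, of the array. The replicates are described as biological, but not whether they came from separate transfections, so p-values speak for these 4 arrays alone. They rest on the spread left after the part that follows the dyes is removed, moderated across all probes or genes. The SD printed beside a mean is that of the 4 array values and includes the part that follows the dyes. The table holds ratios and no levels, so epithelial markers could not be used to check that the cells were A549, and bulk RNA cannot tell fewer cells from less RNA per cell.

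Carriers of the plasma membrane fall into those that run down a gradient (the glucose carriers of SLC2), those that use the sodium gradient set up by the sodium pump (SLC5, SLC6, SLC38 and others), and exchangers that trade 1 substrate for another (SLC7). Carriers of SLC25 sit in the inner mitochondrial membrane, and those of SLC35 bring nucleotide sugars into the Golgi and the endoplasmic reticulum. In lung epithelium such proteins set the ion and fluid balance of the airway surface, and in cancer cells amino acid and glucose uptake feeds growth. MicroRNAs of the let-7 family pair with messenger RNAs mainly through the seed, bases 2 to 8. The mature RNAs of let-7a-3, the gene named in the array titles, are shown with the seed in capitals, as RefSeq gives them for GRCh38.p14 on chromosome 22, plus strand.
hsa-let-7a-5p: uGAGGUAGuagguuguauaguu
hsa-let-7a-3p: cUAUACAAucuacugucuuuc
The first lies at chr22:46112752-46112773 and the second at chr22:46112800-46112820.

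In the shared component 3 of the 423 carrier probes passed, all with positive log ratios: SLC38A2, SLC23A2 and SLC12A2. This is 0.709% of the carrier probes, against 2.07% of all probes. With probes averaged per gene, 5 of 250 carriers passed (2.00%), against 3.04% of all genes: SLC38A2, SLC23A2, SLC25A3 and SLC5A11 with positive and SLC7A9 with a negative log ratio. Positive calls were 1.12% of all probes and 1.63% of all genes. The carriers as a group lay near 0, with a gene-level median of 0.0083 (all genes 0.0069) and 137 positive and 113 negative members. An unadjusted p under 0.05 was reached by 54 carrier probes (12.8%, against 12.5% of all probes) and 31 carrier genes (12.4%, against 14.6% of all genes).

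SLC38A2, the sodium-coupled neutral amino acid transporter SNAT2, had the largest positive log ratio of the 250 carriers. Its only probe was at 0.68, 0.95, 0.96 and 0.93 on arrays 1 to 4. Arrays 2, 3 and 4 lay close together whatever their dye orientation, and array 1 was the lowest, still well above 0. The mean was 0.88 ± 0.14 (SD, n = 4; adjusted p = 5.2e-05 over all probes), and the alternating component was -0.062 (adjusted p = 0.538).

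SLC23A2 encodes SVCT2, which takes up ascorbate with sodium. Its clone IMAGp998G13229 was at 0.94, 0.31, 0.76 and 0.28 on arrays 1 to 4 (mean 0.57 ± 0.33, SD, n = 4, adjusted p = 0.000448). All 4 values were positive, but arrays 1 and 3 stood above arrays 2 and 4, and the clone passed in the alternating component too (0.28, adjusted p = 0.031). The other clone, RZPDp202E048D, was at -0.28, 0.42, 0.31 and 0.48, with array 1 alone below 0. It did not pass (0.23, adjusted p = 0.278), and its alternating component had the opposite sign (-0.22). The opposite dye patterns cancelled in the mean of the clones, which was at 0.33, 0.37, 0.54 and 0.38 on the 4 arrays (0.40 ± 0.090, SD, n = 4, adjusted p = 0.00325 over all genes).

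SLC12A2 encodes NKCC1, the cotransporter that loads epithelial cells with sodium, potassium and chloride for secretion. Clone IMAGp998M234417 was at 0.93, 0.38, 0.45 and 0.39 on arrays 1 to 4, so that array 1 stood apart from the rest, and its mean was 0.54 ± 0.26 (SD, n = 4, limma adjusted p = 0.0051). The other clone, IMAGp998J122307, was at 0.17, -0.23, -0.084 and -0.21, with a mean of -0.088 (adjusted p = 0.585). The clones of this gene therefore disagreed in sign, and their mean did not pass (0.22, adjusted p = 0.112).

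The other gene-level calls were smaller and rested on 1 probe each, none of which passed over all probes. SLC25A3, the phosphate carrier of mitochondria, was at 0.27, 0.070, 0.31 and 0.33 (0.24 ± 0.12, SD, n = 4, limma adjusted p = 0.0478). SLC5A11, a sodium-inositol cotransporter, was at 0.23, 0.25, 0.24 and 0.12 (0.21 ± 0.059, adjusted p = 0.0418). On every array another probe had exactly the same value as the SLC5A11 probe, a kind of repeat described further on. SLC25A3 and SLC5A11 were positive on all arrays. SLC7A9, the light chain of a cystine and basic amino acid exchanger, was at -0.14, -0.41, 0.030 and -0.45, so arrays 2 and 4 carried most of its mean (-0.24 ± 0.23, adjusted p = 0.0292).

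**Figure D1:**
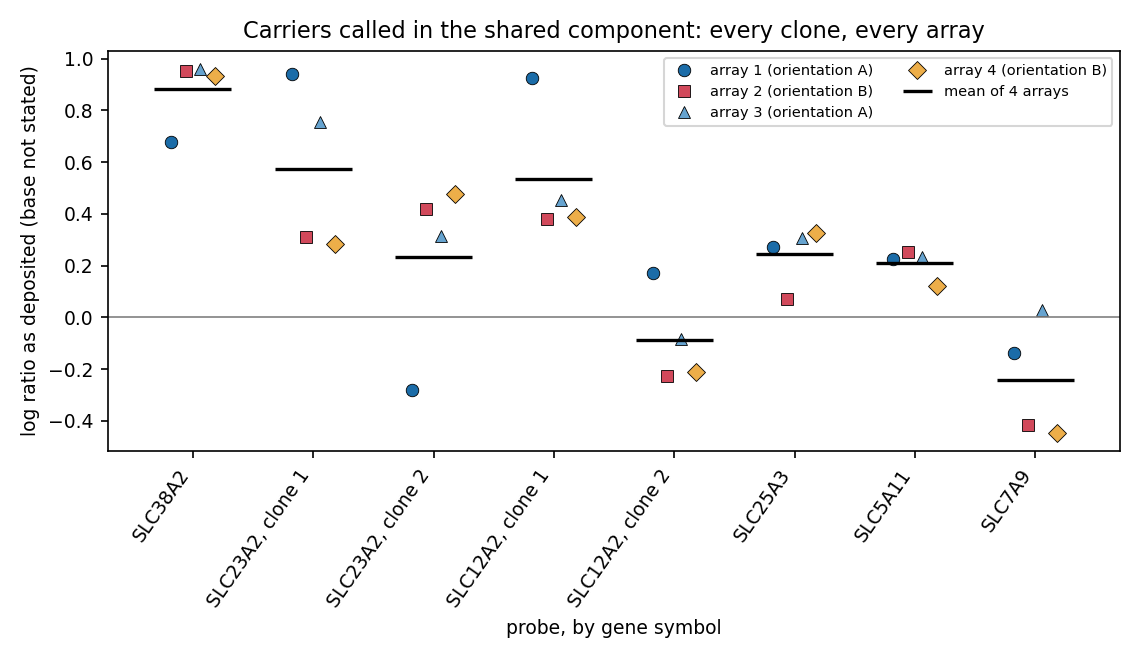
Log ratio as deposited (y axis, base not stated) of every clone of the 6 carriers called in the shared component, with 1 symbol per array and a bar at the mean of the 4 arrays. Orientation A is arrays 1 and 3, orientation B arrays 2 and 4. SLC38A2 lies between 0.68 and 0.96 on all arrays, and the 2 clones of SLC12A2 have means of 0.54 and -0.088.

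The calls of SLC38A2, SLC23A2 and SLC12A2 at the probe level were kept in 11 of 12 alternatives each and lost without moderation. In limma's unmoderated fit 0 carrier probes passed, as did 0 of all 26629 probes, and 35 carrier probes had an unadjusted p under 0.05. Without 1 array the number of carrier probes passing was 7 (array 1), 3 (array 2), 16 (array 3) and 4 (array 4), and that of carrier genes 9, 3, 29 and 3. Over the whole array the share of genes passing was 6.39%, 1.43%, 11.8% and 1.63%, against 3.6%, 1.2%, 11.6% and 1.2% of the carriers. For probes it was 1.91%, 1.02%, 3.32% and 1.07%, against 1.65%, 0.709%, 3.78% and 0.946% of the carrier probes. SLC25A3 lost its call under 8 of 13 alternatives, among them leaving out array 4, and SLC5A11 under 6 of 12, among them leaving out array 2 or array 4. SLC7A9 lost it under 4 of 13, again with array 2 or array 4 left out.

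The regulatory sequence next to the start of these genes is shown for SLC38A2, SLC12A2 and SLC25A3, which have an entry in the RefSeq promoter table (GRCh38.p14), because SLC38A2 and SLC12A2 have a clone called over all probes, in SLC12A2 1 clone of 2, and SLC25A3 holds the only motif match among those called. SLC7A9 had an entry too. Each line gives the 250 bases before the start, 5′ to 3′ on the gene's strand. Capitals mark a match, on either strand, to the string TGCNCNC that was searched for as a metal motif.
SLC38A2, chr12:46372774-46373023, minus strand: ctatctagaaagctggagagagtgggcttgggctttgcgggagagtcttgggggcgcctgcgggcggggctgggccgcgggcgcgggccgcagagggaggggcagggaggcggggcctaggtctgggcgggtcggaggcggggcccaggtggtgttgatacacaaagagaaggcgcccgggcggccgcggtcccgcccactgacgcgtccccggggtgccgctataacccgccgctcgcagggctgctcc
SLC12A2, chr5:128083516-128083765, plus strand: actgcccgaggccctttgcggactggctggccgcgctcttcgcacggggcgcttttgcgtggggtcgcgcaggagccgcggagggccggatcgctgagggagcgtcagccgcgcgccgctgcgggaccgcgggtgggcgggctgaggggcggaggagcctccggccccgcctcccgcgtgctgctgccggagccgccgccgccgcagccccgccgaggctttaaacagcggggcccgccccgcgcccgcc
SLC25A3, chr12:98593436-98593685, plus strand: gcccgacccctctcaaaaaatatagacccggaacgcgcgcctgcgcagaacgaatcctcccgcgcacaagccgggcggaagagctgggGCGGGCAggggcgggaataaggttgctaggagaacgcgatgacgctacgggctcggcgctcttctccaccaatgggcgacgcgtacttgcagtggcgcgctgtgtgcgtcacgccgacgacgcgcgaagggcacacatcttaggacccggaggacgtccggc
The G and C content of these windows was 73.6%, 79.6% and 66%, against a median of 58.0% over 35116 promoters. Both strands of whole promoter windows (250 bases before the start and 50 after) were searched for the amino acid response motif TGATGNAAN, its form TTGCATCA, the antioxidant motif TGACNNNGC, the hypoxia motif ACGTG, the E-box CACGTG, which overlaps it, and the metal motif TGCNCNC. Of the 250 carriers 207 had an entry, with 292 windows. The shares of carrier windows holding these motifs, in that order, were 5.48%, 1.03%, 14.04%, 23.6%, 9.59% and 63.0%, and those of all windows 3.61%, 0.866%, 13.4%, 21.4%, 7.26% and 55.9%. Among the 4 called carriers with an entry a match to TGCNCNC in SLC25A3 (GCGGGCA on the printed strand) was the only match within these windows. N stands for any base, and 55.9% of all windows held this string. Sequence beyond the windows, in introns or farther from the start, was not searched, so elements there would be missed. A match is a string of letters and not a measured binding site.

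**Figure D2:**
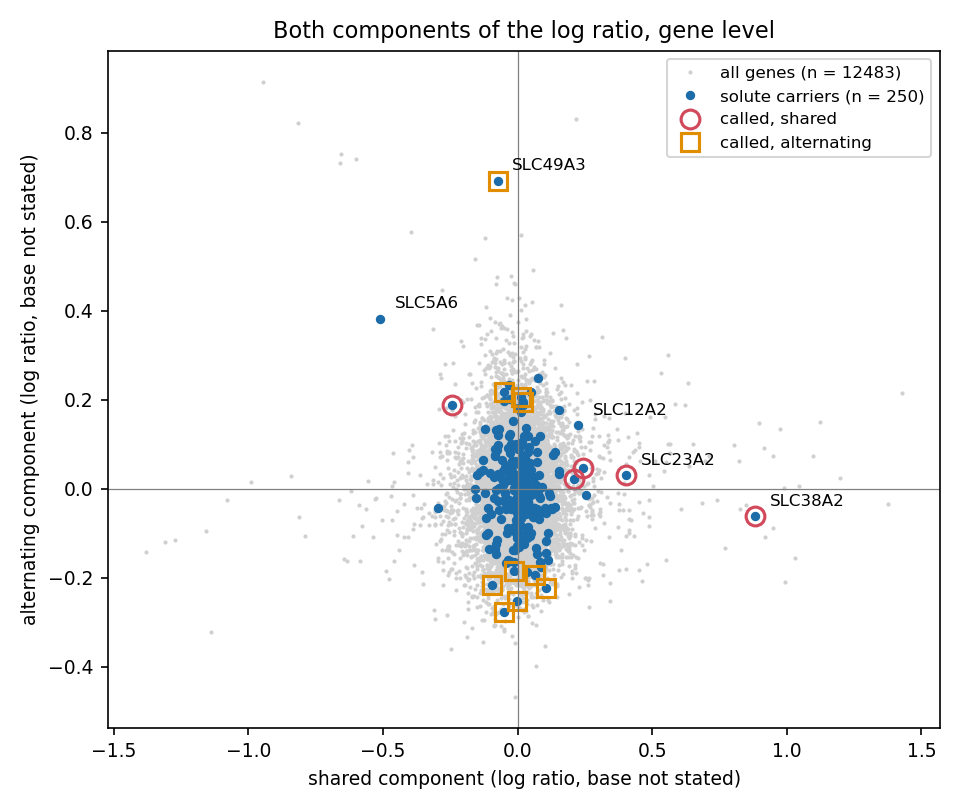
Shared component (x axis) against alternating component (y axis), both as log ratios with the base not stated, for 12483 genes (grey) and 250 solute carriers (blue). Red circles mark carriers called in the shared and orange squares those called in the alternating component. SLC38A2 (0.88 shared, -0.062 alternating) and SLC49A3 (-0.074 shared, 0.69 alternating) lie farthest out among the called carriers.

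By class, counts and values are those of the shared component unless the alternating one is named. The shares over all genes to set beside each class count were 3.04% passing and 14.6% with an unadjusted p under 0.05 in limma. Amino acid carriers at the cell surface and in lysosomes (SLC1, SLC3, SLC7, SLC36, SLC38 and SLC43) counted 32 genes, of which SLC38A2 passed with a positive and SLC7A9 with a negative value and 30 did not pass. The class median was -0.0097, with 12 members positive and 20 negative. SLC1A7, a glutamate transporter, came next in moderated statistic (0.15, adjusted p = 0.190). Several carriers often studied in tumour cells had no call in the shared component. SLC7A5, the large neutral amino acid exchanger LAT1, was at -0.31, -0.016, 0.20 and -0.055 (mean -0.047 ± 0.21, SD, n = 4), and SLC3A2, its heavy chain, at -0.16, -0.10, 0.18 and 0.034 (mean -0.011). These values straddled 0, as did those of SLC7A11, the cystine-glutamate exchanger (-0.069, 0.11, 0.094 and 0.10, mean 0.058), with array 1 alone negative. SLC1A5, the glutamine carrier ASCT2, had a shared component of -0.051 (adjusted p = 0.672) but passed in the alternating one (-0.28, adjusted p = 0.0301), and SLC1A4, ASCT1, 0.019 over 4 clones (adjusted p = 0.872).

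Within SLC38 itself 9 genes were measured, with a median of -0.018 and 4 of 9 positive, so the value of SLC38A2 was not that of its family. A clone of SLC38A1 (SNAT1), named here after its values were seen, was at 0.28, 0.18, 0.20 and 0.18 (mean 0.21, adjusted p = 0.0774). It lay above 0 on all arrays with little spread and did not pass over all probes, and the other clone was at -0.0083. In the amino acid response, the pathway in which ATF4 turns on SLC38A2 and other genes when amino acids are short, 0 of 14 measured genes passed in limma, 2 had an unadjusted p under 0.05 and the median was 0.016. ATF4 itself was at 0.30 (adjusted p = 0.0517), while ASNS (0.066), TRIB3 (0.0079) and DDIT3 (0.11) had adjusted p of 0.529 or more. In all genes 14.6% had an unadjusted p under 0.05.

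Sugar carriers (SLC2, SLC45 and SLC50) counted 15 genes, with a median of 0.018. In limma 0 passed and 2 had an unadjusted p under 0.05. SLC50A1, a sugar efflux carrier, was at 0.16, 0.21, 0.042 and 0.16 (mean 0.14, adjusted p = 0.154), SLC45A4 at 0.11 (adjusted p = 0.314) and SLC2A12 at 0.12 (adjusted p = 0.395). SLC2A1, the glucose carrier GLUT1, was at 0.053, 0.067, 0.097 and 0.093 on the 4 arrays (mean 0.077 ± 0.021, SD, n = 4, adjusted p = 0.433). It was positive on all of them, and its mean was small. Of 14 genes of glucose and lactate handling 1 passed in limma and 13 did not, with a list median of -0.0043. It was LDHA, which makes lactate from pyruvate (0.46 ± 0.24, adjusted p = 0.000724). Among all genes 3.04% passed and 14.6% had an unadjusted p under 0.05.

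Sodium cotransporters of SLC5 counted 7 genes with a median of -0.024. SLC5A11 passed, and SLC5A1, the intestinal glucose carrier SGLT1, was at -0.087 (adjusted p = 0.469). SLC5A6, the carrier of biotin and pantothenate, had the lowest gene mean of all carriers (-0.51) without passing (adjusted p = 0.233). Its clone IMAGp998D21383 was at -0.31, -3.16, 0.0064 and -0.098, so that array 2 alone set the mean of -0.89. The other clone was at -0.30, 0.027, 0.088 and -0.33 (mean -0.13), and so gave no low value on array 2.

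Mitochondrial carriers (SLC25) formed the largest family, with 35 genes. SLC25A3 passed with a positive value, none with a negative one, and 34 did not pass. The median was 0.0093, with 20 positive and 15 negative members. SLC25A38, the glycine carrier used in heme synthesis, was at -0.091, -0.24, -0.039 and -0.15 (mean -0.13, adjusted p = 0.186), negative on all arrays, and SLC25A16 at -0.15 (adjusted p = 0.234). The adenine nucleotide carriers SLC25A4 (0.067, adjusted p = 0.580) and SLC25A5 (0.10, adjusted p = 0.358) did not pass in the shared component. Of 9 measured partners of these carriers in mitochondrial import and the outer membrane, 1 passed in limma and 8 did not. It was the channel VDAC2 (0.45 ± 0.23, SD, n = 4, adjusted p = 0.00216). Among all genes 3.04% passed.

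Metal carriers (SLC11, SLC30, SLC31, SLC39, SLC40 and SLC41) counted 28 genes, with 0 passing in limma, 6 at an unadjusted p under 0.05 (21.4%, where all genes had 14.6%) and a median of 0.023. SLC30A1, the zinc exporter ZnT1, was at 0.20, 0.082, 0.17 and 0.16 over its 2 clones (mean 0.15 ± 0.050, SD, n = 4, adjusted p = 0.105), above 0 on all arrays, with the clones at 0.24 and 0.062. SLC39A8, the zinc and manganese importer ZIP8, was at 0.54, 0.24, -0.060 and 0.30 (mean 0.25, adjusted p = 0.208), with array 3 below 0. SLC39A1, the importer ZIP1, was at -0.18, -0.079, -0.080 and -0.14 (mean -0.12, adjusted p = 0.226), below 0 on all arrays. SLC39A14 (0.045), the iron importer SLC11A2 (0.016) and the iron exporter SLC40A1 (-0.037) had adjusted p between 0.663 and 0.909.

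Of 14 measured members of the metal handling list 5 passed, all negative, 9 did not, and the median was -0.052. Metallothioneins, small proteins that bind zinc and copper, were not of 1 kind. MT2A (-0.63 ± 0.25, SD, n = 4, adjusted p = 0.00138), MT1X (-0.45 ± 0.077) and MT1H (-0.39 ± 0.18) passed. MT1G (-0.16, adjusted p = 0.157) and MT1E did not, and MT1E was positive, at -0.046, 0.24, 0.13 and 0.39 (mean 0.18, adjusted p = 0.119). ATOX1, a copper chaperone, was at -0.22 and STEAP3, a metal reductase, at -0.21. Metallothionein genes are near-identical copies, and cDNA clones can take up each other's RNA, so their values are not independent. Negative calls were 1.41% of all genes.

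Of 16 acid-base carriers (SLC4, SLC9 and SLC26) 0 passed in limma and 0 had an unadjusted p under 0.05, with values between -0.081 and 0.073. SLC26A2, a sulfate carrier (-0.081), SLC4A3 (-0.073) and SLC26A8 (-0.073) had the largest statistics. Among 7 cation-chloride cotransporters 0 passed at the gene level in limma and 1 had an unadjusted p under 0.05. SLC12A2 (0.22) was followed by SLC12A5 (0.086) and SLC12A8 (0.051). Of 8 sodium-calcium exchangers SLC24A2 (0.10, adjusted p = 0.285), SLC24A4 (0.084) and SLC8A2 (0.070) came first, and 1 had an unadjusted p under 0.05. SLC20A1, a phosphate carrier, was at 0.031, -0.20, -0.0011 and -0.31 (mean -0.12, adjusted p = 0.226), with arrays 2 and 4 low. SLC17A7 (0.11) and SLC17A9 (0.083), vesicular carriers of glutamate and nucleotides, also stood among the 11 phosphate and vesicular anion carriers, of which 0 passed in limma and 2 had an unadjusted p under 0.05. The sulfate and carboxylate carriers SLC13A1 (-0.017), SLC13A2 (-0.071) and SLC13A4 (-0.060) did not pass.

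Of 11 vitamin carriers SLC23A2 passed, and SLC46A1 (-0.051), SLC19A2 (0.049) and the folate carrier SLC19A1 (0.024) did not. Among all genes 3.04% passed and 14.6% had an unadjusted p under 0.05. Among 8 nucleoside, urea and choline carriers 0 passed in the shared component in limma, where SLC14A1 was at -0.059, SLC44A5 at 0.043 and SLC44A3 at 0.034 and 0 had an unadjusted p under 0.05. Of 7 carriers of fatty acids and acyl groups 0 passed in limma and 2 had an unadjusted p under 0.05. SLC27A3 was at -0.27, -0.10, -0.076 and -0.16 (mean -0.15, adjusted p = 0.162), negative on all arrays. SLC33A1, which brings acetyl-CoA into the endoplasmic reticulum, was at 0.064, 0.12, 0.15 and 0.15 (mean 0.12, adjusted p = 0.208), positive on all arrays, and SLC33A2 was at 0.070. The monocarboxylate carriers SLC16A14 (0.15, adjusted p = 0.365), SLC16A7 (0.059), SLC16A12 (-0.044) and SLC16A4 (0.030), the nucleotide sugar carriers SLC35A3 (0.064), SLC35A4 (-0.045) and SLC35A1 (-0.041), and the peptide carrier SLC15A1 (0.021) did not pass in the shared component. SLC44A2, SLC35A3 and SLC15A1 passed in the alternating one, with values given further on.

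Carriers of organic anions and cations (SLC22, SLC47 and SLCO), which handle drugs in liver and kidney, counted 23 genes with a median of -0.019, 4 at an unadjusted p under 0.05 and 0 passing in limma. SLC22A11, the organic anion carrier OAT4, came nearest at -0.55, -0.21, -0.13 and -0.29 (mean -0.29 ± 0.18, SD, n = 4, adjusted p = 0.063), below 0 on all arrays. SLC22A25 (0.13, adjusted p = 0.162) and SLCO5A1 (-0.11, adjusted p = 0.309) followed. The 15 carriers of neurotransmitters, amino acids and osmolytes (SLC6) had a median of 0.016, 0 passing in limma and 1 at an unadjusted p under 0.05, with SLC6A15 (0.14, adjusted p = 0.291), the noradrenaline carrier SLC6A2 (0.085) and SLC6A17 (-0.082) first and the taurine carrier SLC6A6 at -0.043. The vesicular amine carriers SLC18A1 (0.018), SLC18A2 (-0.018) and SLC18A3 (0.0045) and the bile acid family members SLC10A7 (0.061) and SLC10A2 (-0.0068) lay near 0. Among 8 genes of families numbered above 52, 0 passed in limma and 1 had an unadjusted p under 0.05. SLC71A2 was at -0.18, -0.10, -0.14 and -0.21 (mean -0.16 ± 0.046, SD, n = 4, adjusted p = 0.105), negative on all arrays. SLC66A1 (0.10), a lysosomal amino acid exporter, and SLC71A1 (0.079) did not pass. SLC49A4 was at -0.0091.

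**Figure D3:**
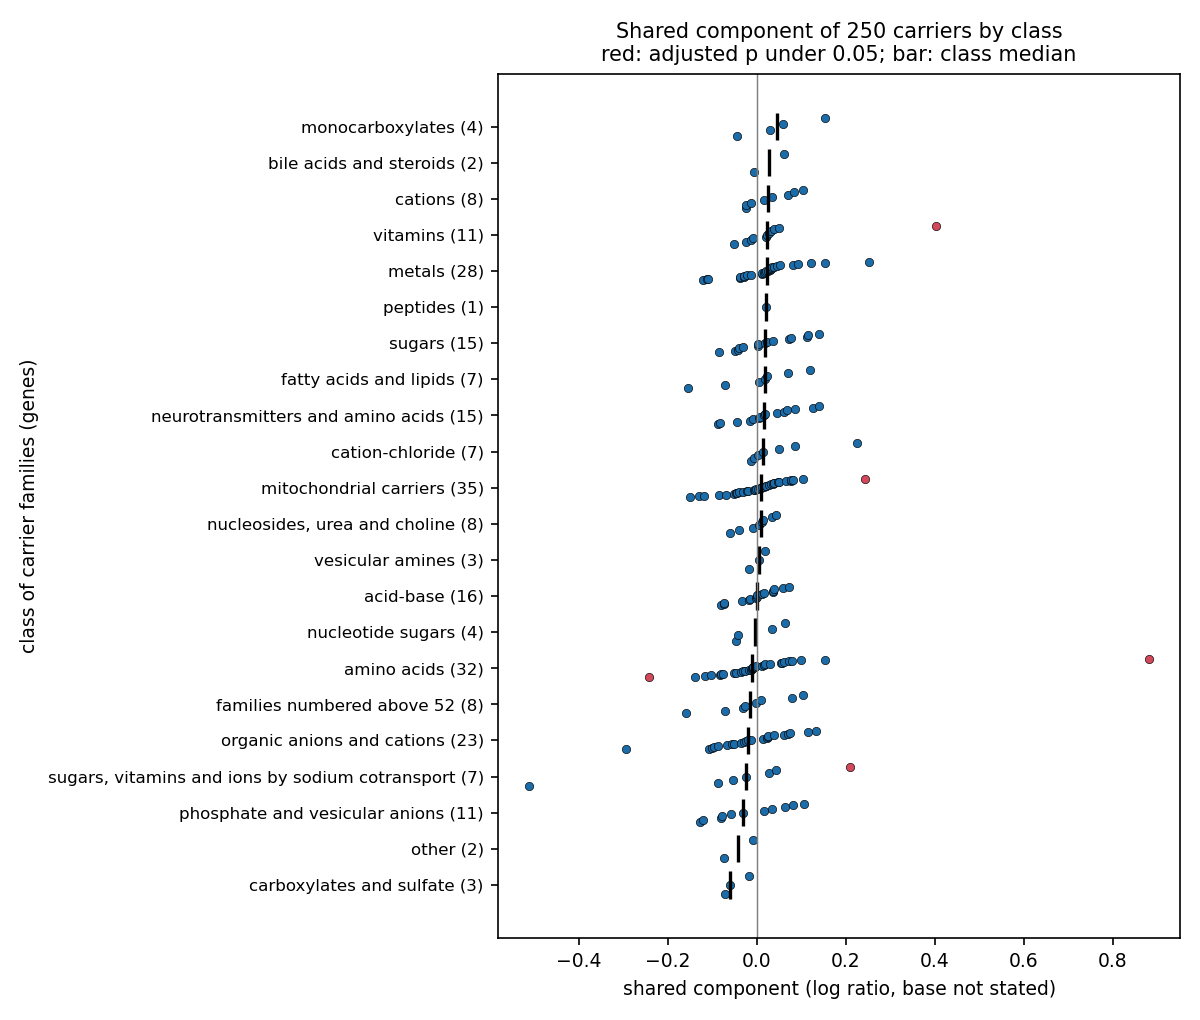
Shared component of the 250 solute carrier genes (x axis, log ratio, base not stated) by class of families (y axis, number of genes in brackets), with 1 point per gene, called genes in red and a bar at the class median. The class medians lie between -0.060 and 0.045, and SLC38A2 (0.88) and SLC23A2 (0.40) stand farthest to the right.

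Among the accessory proteins and regulators of transporters, 2 of 19 measured passed, both positive, 17 did not, and the median was 0.041, while 3.04% of all genes passed and 1.63% did so with a positive value. ATP1B3, a subunit of the sodium pump, was at 1.10, 1.18, 1.35 and 1.17 (1.20 ± 0.11, SD, n = 4, adjusted p = 1.66e-05). The kinase SGK1, which raises the activity of several carriers, was at 0.66, -0.11, 0.65 and 0.062 (0.32, adjusted p = 0.00901), with arrays 1 and 3 far above arrays 2 and 4, and passed in the alternating component as well (0.34, adjusted p = 0.0236). BSG, the partner of lactate carriers, was at 0.099 (adjusted p = 0.324). Of 11 epithelial markers KRT8 (0.39) and ELF3 (0.32) passed, both positive. In limma 0 of 7 fibroblast and 0 of 7 endothelial markers passed in this component (1 of each had an unadjusted p under 0.05), and NKG7 (-0.26) alone passed of 6 blood cell markers. In the alternating component the endothelial marker TEK passed (-0.20), and LDHA too (-0.21). Their part in the carriers' values was not tested.

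Many deposited log ratios were exact repeats: another probe on the same array had the same value to the last digit. On array 1 this held for 71.5% of all probes, with up to 69 probes sharing 1 value, and on arrays 2 to 4 for 51.9% to 55.4%. For carrier probes it was 71.6% on array 1 and between 53.0% and 57.0% on the others. Of all probes 30.6% were repeated on all 4 arrays and 18.2% on none, and of the carrier probes 32.6% (138) and 16.1% (68). No source used here says what makes values repeat. Calls in the shared component were most common where nothing repeated: 8.09% of the 4846 probes repeated on no array and 0.135% of the 8153 repeated on all 4. All 3 called carrier probes were among the 68 carrier probes with no repeat (4.41%). In the alternating component the shares were 4.93% and 2.46% of all probes, a smaller range. The 19 called carrier probes were spread over all levels of repetition, with 5 repeated on no array and 2 on all 4. These 2 were a clone of SLC1A2 and the probe of SLC1A5. The gene-level calls of SLC5A11 (shared) and of SLC1A5 and SLC12A7 (alternating) each rested on 1 probe repeated on all 4 arrays.

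**Figure D4:**
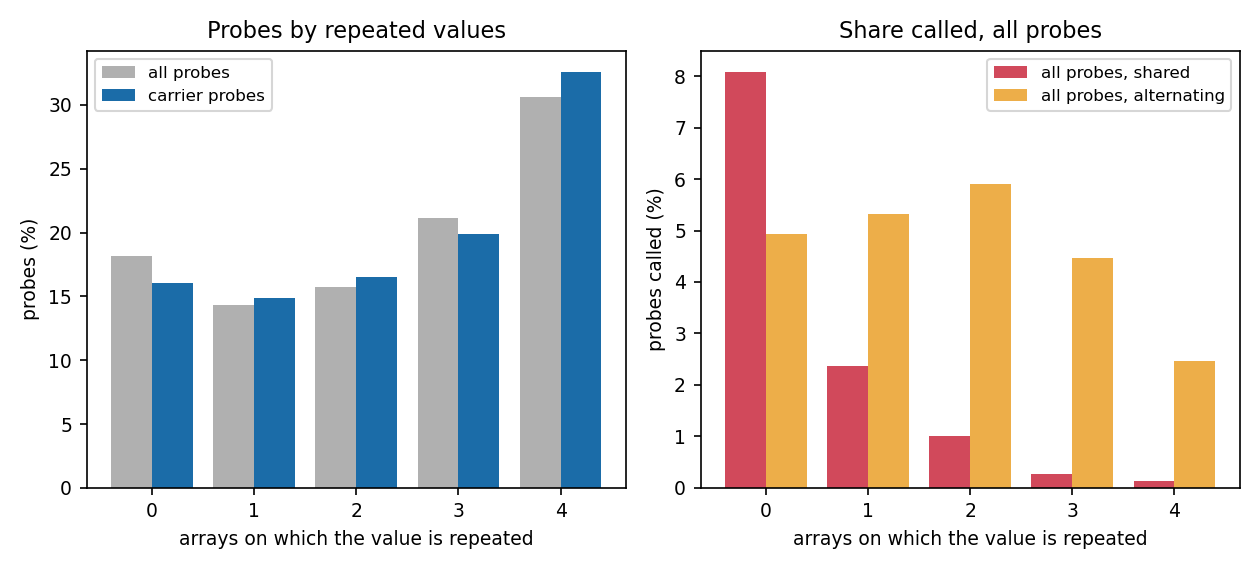
Left, share of all probes (grey) and carrier probes (blue) by the number of arrays on which the deposited value is an exact repeat. Right, share of all probes called in the shared (red) and alternating (orange) component by the same number. The share called in the shared component runs from 8.09% with no repeat to 0.135% with repeats on all 4 arrays.

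With the probes repeated on all 4 arrays left out, an alternative chosen after seeing the data, 8 of 285 carrier probes passed in the shared component (2.81%), against 3.82% of 18476 probes. SLC25A3 (0.24), SLC30A1 (0.24) and SLC38A1 (0.21) with positive and SLC7A9 (-0.24) and SLC39A11 (-0.22) with negative values joined SLC38A2, SLC23A2 and SLC12A2. SLC39A11, a zinc carrier, had a further clone at -0.41, -0.22, -0.27 and 0.014, whose mean was also -0.22, while the remaining clones were at -0.072 and 0.083.

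In the alternating component 19 of the 423 carrier probes passed (4.49%), against 4.28% of all probes, 9 with positive and 10 with negative values (2.81% and 1.48% of all probes). At the gene level 10 of 250 passed (4.00%), against 3.29% of all genes, 4 positive and 6 negative (1.9% and 1.39% of all genes). An unadjusted p under 0.05 was reached by 106 carrier probes (25.1%, against 25.2%) and 69 carrier genes (27.6%, against 25.6%). Values here carry the sign of arrays 1 and 3. SLC49A3, a carrier of the family that holds the heme exporters, had the largest value among the called probes, at 0.50, -0.80, 0.74 and -0.74 on arrays 1 to 4 (alternating component 0.69, adjusted p = 0.0067). Arrays of different dye orientation did not overlap for it, and its shared component was -0.074. The SLC5A6 clone with the low value on array 2 was larger (0.74) and did not pass (adjusted p = 0.234).

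The other probes named lay between 0.26 and 0.41 in size. On the positive side were SLCO4C1 (0.40, adjusted p = 0.0359), an organic anion carrier of the kidney, SLC22A15 (0.35, adjusted p = 0.0149), SLC75A1 (0.32), the glutamate carrier SLC1A2 (0.31), SLC38A4 (0.29) and the SLC23A2 clone described above. On the negative side were the carnitine carrier SLC22A16 (-0.41, adjusted p = 0.0194), SLCO4A1 (-0.29), SLC1A5 (-0.28), the lactate carrier SLC5A12 (-0.26) and SLC25A5 (-0.26). SLC1A5 was at -0.27, 0.15, -0.38 and 0.30, and SLC25A5 at -0.096, 0.35, -0.043 and 0.55. In each of these probes except that of SLC23A2 the sign followed the dye orientation on all 4 arrays. That pattern was found in 28.6% of carrier probes and 28.8% of all probes, while 1 sign on all 4 arrays was found in 12.5% and 14.1%. Averaged per gene the dye pattern held for 29.6% of carriers and 28.2% of all genes, and 1 sign for 10.8% and 15.8%.

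**Figure D5:**
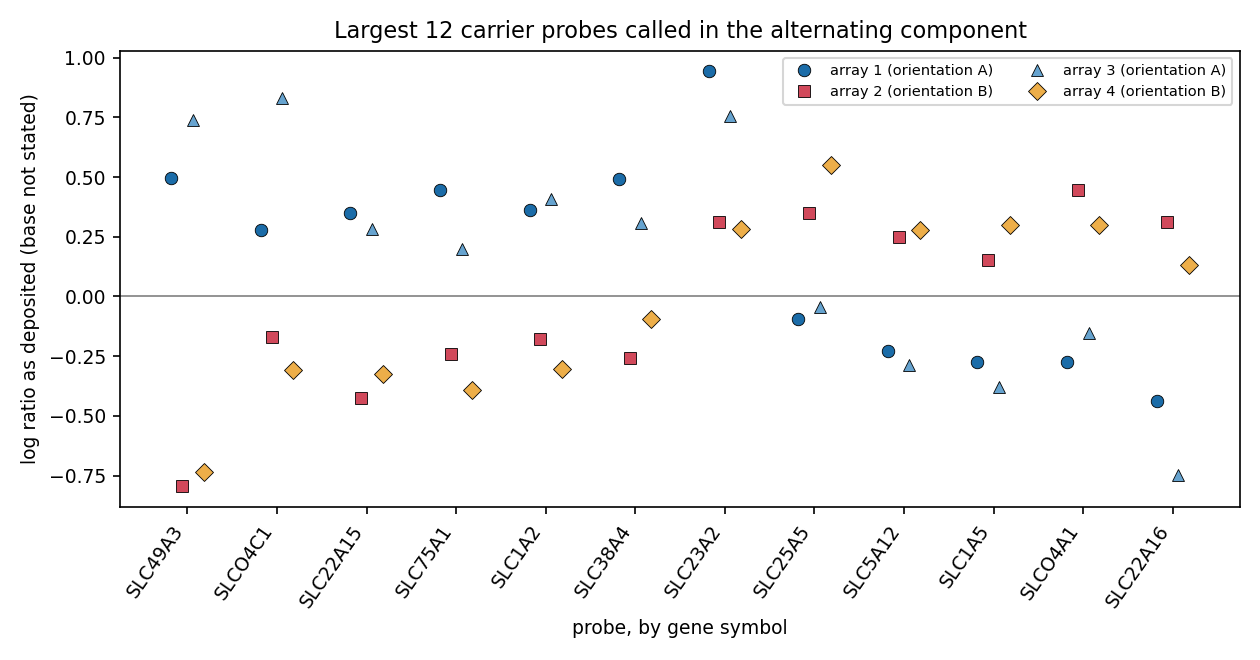
Log ratio as deposited (y axis, base not stated) of the 12 carrier probes with the largest values among those called in the alternating component, with 1 symbol per array. Circles and triangles are arrays 1 and 3 (orientation A), squares and diamonds arrays 2 and 4 (orientation B). For SLC49A3 the first pair lies at 0.50 and 0.74 and the second at -0.80 and -0.74.

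Other clones of these genes mostly had smaller values or the opposite sign. Because the named clones were chosen for their size, smaller values in the others can come from the choice alone. The further clones of SLC1A2 were at 0.20 and 0.0032, and those of SLC75A1 at 0.16, 0.083 and -0.090. The further clones of SLC22A15 (-0.078), SLC22A16 (-0.025), SLCO4A1 (0.0001) and SLCO4C1 (0.10) lay closer to 0, and the further SLC38A4 clones were at 0.12 and -0.17. In SLC5A12 clones were at -0.26, -0.11, 0.20 and 0.20, so that the gene's mean was 0.0072. SLC25A5 had its second clone on the same side (-0.19, adjusted p = 0.12), and the mean of both passed (-0.22, adjusted p = 0.0475). The other gene-level calls were SLC49A3, the peptide carrier SLC15A1 (0.20), the choline-like carrier SLC44A2 (0.21), the kidney anion carrier SLC22A6 (0.22), SLC1A5 (-0.28), the oxoglutarate carrier SLC25A11 (-0.25), SLC22A16 (-0.22), the nucleotide sugar carrier SLC35A3 (-0.19) and the potassium-chloride cotransporter SLC12A7 (-0.19). Without 1 array the number of carrier probes passing was 24 (array 1), 1 (array 2), 24 (array 3) and 3 (array 4), and that of carrier genes 44, 1, 36 and 2. Over the whole array the share of genes passing was 18.4%, 0.312%, 12.7% and 0.553%, against 17.6%, 0.4%, 14.4% and 0.8% of the carriers. For probes it was 7.04%, 0.424%, 4.25% and 0.518%, against 5.67%, 0.236%, 5.67% and 0.709% of the carrier probes. SLC49A3 kept its probe-level call in 11 of 12 alternatives.

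Over the 68 carriers with exactly 2 clones, the clones had the same sign in 38 (55.9%) in the shared component and in 40 (58.8%) in the alternating one. Over the 3108 genes of the array with 2 clones the shares were 54.8% and 52.2%. Across the 423 carrier probes, which are not independent replicates and share their arrays, Pearson's r was 0.36 between arrays 1 and 3 and 0.49 between arrays 2 and 4. Between arrays of opposite orientation it lay between -0.21 and 0.021, as it did over all probes (-0.16 to 0.055).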

How the data were processed

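RNA of A549 cultures was amplified, labelled with Cy3 and Cy5 and hybridized in pairs to 4 cDNA arrays, per the labels' protocols. The authors used ArrayMagic with variance-stabilizing normalization and limma, per the series' design text. The deposited values are log ratios, of which no source used here gives the base, numerator or orientation, and they were used with no further normalization. The table holds no intensities, so dim probes could not be filtered.

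Gene symbols came from the platform annotation, and for all 423 carrier probes they matched RefSeq's GRCh38.p14 table unchanged. Probes of a gene were averaged. limma 3.58.1 (R 4.3.3) was fitted to all 26629 probes and 12483 genes with a common and a dye orientation coefficient, leaving 2 residual degrees of freedom, to which moderation added 7.22 (probes) and 5.89 (genes). Tests were two-sided. Related lists were described by counts and medians, with no set test.

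Named carriers were every probe called in the shared component, the 12 largest called in the alternating one and up to 3 per class by moderated statistic. To these came 25 set genes, of which 17 were measured. Other clones of genes named by a probe were added. The SLC5A6 clone IMAGp998D21383 was added after its values were seen. Members and lists were chosen with earlier results of these data known. On simulated data for the shared component with 26629 probes, 77.6% of 67 probes changed by 0.25 were recovered. All of those changed by 0.5 (67) and 1 (66) were recovered too. Of 209 calls 24 were false, a share above the adjusted p threshold, so calls on simulated data held more false ones than that threshold names. Recovery on the real arrays, which hold repeated values and single outlying arrays, was not tested. Alternatives were centring, scaling to the median absolute deviation (MAD), quantile normalization, robust (statmod 1.5.0) or no moderation, array weights and leaving out each array. Thresholds, a minimum size and the choice of probes were varied too. The dye term was left out for the shared component, and the common term for the alternating one. Figures were drawn with matplotlib 3.10.9.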

Additional observations from a re-analysis of the deposited data

Results flagged for a closer look

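Of 112 named results 9 had 1 array far from the other 3 (a gap to the nearest above Dixon's critical value for 4 arrays). For independent results with normal spread chance alone would give about 1 in 20. The results here overlap, since a gene and its probes can both be counted. The SLC5A6 clone below was added after its values were seen. The count of 9 can therefore not be set against that share. SLC38A2 was low on array 1, at 0.6787 against 0.9343 to 0.9606, both as a probe and as a gene, since it has 1 probe. The called SLC12A2 clone was high on the same array, at 0.9263 against 0.3789 to 0.4541. SLC7A11 stood at -0.0694 on array 1, against 0.0938 to 0.1051, and the SLC75A1 clone IMAGp998F21785 at -0.4006, against -0.056 to 0.0139. The SLC5A6 clone IMAGp998D21383 was at -3.1631 on array 2, against -0.3067 to 0.0064. SLC13A4 was at -0.2391 on array 3, against -0.016 to 0.0266, SLC16A12 at 0.0892 on array 3, against -0.1041 to -0.0796, and SLC40A1 at -0.176 on array 4, against 0.0015 to 0.0214. Of the results flagged, 5 were on array 1, the array with the most repeated values (71.5% of probes). The part of repetition in them was not tested.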

How the results depend on the processing

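No call on a named carrier changed sign under the alternatives run. Over named carriers and alternatives 1350 comparisons kept their side of the threshold, 111 lost a call and 33 gained one. Most of the 1350 were results without a call that stayed without one, so this count does not show how stable the calls were. At the gene level calls were kept in 5 of 13 alternatives for SLC25A3 and 5 of 12 for SLC12A7. For SLC38A2, SLC23A2 and SLC49A3 they were kept in 12 of 13. Without moderation limma called 0 carrier probes and 0 carrier genes in either component. Over the whole array it called 0 probes and 0 genes in the shared component and 4 probes and 1 gene in the alternating one. In that fit 35 carrier probes and 18 carrier genes (shared) and 67 and 42 (alternating) had an unadjusted p under 0.05. Shares over the whole array are not given for these unadjusted counts. In the shared component the count of 3 probes was 12 at an adjusted p of 0.1. Without probes repeated on 4 arrays it was 8 (2.81% of carrier probes, against 3.82% of all probes). With 1 array left out it ran from 3 to 16, the last without array 3 (3.78%, against 3.32%). The count of 5 genes was 2 without the dye term (0.8% of carrier genes, against 1.25% of all genes). With median centring it was 3 (1.2%, against 2.92%). It was 2 at an adjusted p of 0.01, 1 with a size of at least 0.5, and from 3 to 29 with 1 array left out. In both components shares over the whole array are not given for the other thresholds and the minimum size. For the alternating component the common term was left out in place of the dye term. The count of 19 probes was then 2 (0.473% of carrier probes, against 0.383% of all probes). Without repeated probes it was 30 (10.5%, against 7.9%). It was 1 at 0.01, 53 at 0.1, 1 with a size of at least 0.5, and from 1 to 24 with 1 array left out. The count of 10 genes was 1 without the common term (0.4% of carrier genes, against 0.0801% of all genes). Without repeated probes it was 23 (11.6%, against 8.6%). It was 1 at 0.01, 30 at 0.1 and 1 with a size of at least 0.5. With the probe of largest statistic per gene it was 19, and with 1 array left out from 1 to 44. The cause of these changes was not tested. Other counts stayed within 1.5 times. Each log ratio compares both cultures within 1 array, so this pairing is already in the values fitted. No further pairing was made, since there is 1 group of arrays. The number of arrays limits the precision, and with 1 array left out 1 residual degree of freedom remains.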
